A study of Mus musculus with 45 samples.

Results

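Sln, Myl4, Myl7, Nppa and Bmp10 are genes whose transcripts are concentrated in the atria of the heart, and their levels were followed across the hearts of 45 male C57BL/6 mice. They were chosen by name, as every probe set of the array annotated to 1 of these symbols and no other gene. This gave 7 of 22690 probe sets and 5 of 12394 genes. All 5 genes were brighter on average than the dimmest 25% of genes, whose limit was 4.90 log2 units, and were therefore among the 9295 genes tested.

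Each array measured total RNA of 1 heart sample, and the labels name the tissue only as heart, without chambers. Regular weight mice (RW) were kept on feed with about 5 kcal% fat. Diet-induced obese mice (DIO) had received feed with 60 kcal% fat since the age of 6 weeks. At 15 weeks, mice of both diets began nose-only exposure to filtered air (SC, the sham control), mainstream cigarette smoke (MS) or sidestream cigarette smoke (SS), for 5 h a day and 8 exposures in 2 weeks, with necropsy on the following day. The regular weight mice gave 8 arrays for RW-SC, 8 for RW-MS and 7 for RW-SS, and the obese mice 8 for DIO-SC, 6 for DIO-MS and 8 for DIO-SS. The feeding note in the labels refers to an LPS study, and the titles and the treatment note, which refer to smoke, were followed. All animals were of 1 strain and sex, and DIO denotes obesity caused by feed, with no genetic change. The series title asks how a high-fat diet and obesity alter the response of the heart to smoke.

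Several arrays stood apart. RW-MS 2, RW-MS 6 and RW-MS 8 had far lower values of Sln, Myl4, Myl7 and Nppa than the other 42 arrays, so group comparisons of these genes that use RW-MS arrays are given with and without them. RW-SS 7 had a difference between the 3' and 5' control probe sets of Gapdh, a sign of RNA quality, of 0.94, against 0.21 to 0.40 on the other arrays. On RW-MS 2, 6 and 8 it was 0.22 to 0.36. Each array correlated with the mean of the rest of its group at r = 0.982 to 0.998 over all genes. The highest correlation between any pair of arrays was 0.998, and none were identical.

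Atrial and ventricular muscle cells use different versions of several proteins. Sln encodes sarcolipin, a small membrane protein that slows the SERCA calcium pump in atrial muscle. Myl4 and Myl7 encode the essential and the regulatory myosin light chains of atrial muscle, in place of the ventricular chains Myl3 and Myl2. Nppa encodes atrial natriuretic peptide, a hormone stored in atrial granules that lowers blood volume and pressure and is also made, at a lower level, in stressed ventricles. Bmp10 encodes a secreted ligand of the bone morphogenetic protein family that signals through the receptor ALK1 (Acvrl1), and in the adult heart it is made mainly in the right atrium. A value for a heart sample therefore depends on how much atrial tissue the sample holds as well as on expression within that tissue. In such bulk samples fewer cells of a type and less RNA per cell cannot be told apart.

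In the mouse genome (RefSeq annotation of GRCm38.p6) Sln lies at chr9:53850251-53853849, Myl7 at chr11:5896637-5898782, Myl4 at chr11:104546017-104587215, Nppa at chr4:148000722-148002074 and Bmp10 at chr6:87428994-87434512. The stretches of 250 bases before the RefSeq start of Nppa, Myl7 and Bmp10 are shown, because Nppa and Myl7 moved together across the arrays while Bmp10 followed its own pattern. They are written 5′ to 3′ on the strand of the gene, at chr4:148000472-148000721 (plus strand), chr11:5898783-5899032 (minus strand) and chr6:87428744-87428993 (plus strand). Capitals mark matches to motifs of cardiac factors and the TATA box.
Nppa: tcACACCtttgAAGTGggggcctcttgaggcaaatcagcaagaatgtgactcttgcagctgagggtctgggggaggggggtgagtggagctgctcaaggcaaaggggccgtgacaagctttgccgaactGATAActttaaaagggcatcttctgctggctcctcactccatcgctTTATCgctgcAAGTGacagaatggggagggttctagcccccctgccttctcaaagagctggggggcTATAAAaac
Myl7: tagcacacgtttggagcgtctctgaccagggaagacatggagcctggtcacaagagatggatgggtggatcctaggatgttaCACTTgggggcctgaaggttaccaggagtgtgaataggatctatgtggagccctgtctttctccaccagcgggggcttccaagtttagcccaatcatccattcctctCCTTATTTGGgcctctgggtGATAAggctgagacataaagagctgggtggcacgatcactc
Bmp10: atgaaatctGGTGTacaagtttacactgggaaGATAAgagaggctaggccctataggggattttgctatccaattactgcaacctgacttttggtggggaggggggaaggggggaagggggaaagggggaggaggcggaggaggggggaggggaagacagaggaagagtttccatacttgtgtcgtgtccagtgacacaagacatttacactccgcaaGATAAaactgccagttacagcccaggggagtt
The motifs searched were GATAA (GATA factors), AAGTG (NKX2-5), GGTGT (T-box factors), CTA and TAG separated by any 4 bases (MEF2) and the SRF CArG box on both strands, and TATAAA on the strand of the gene, with any overlap counted. Positions count back from the base before the start, which is -1. Nppa held GATAA at -121 and -75, AAGTG at -239 and -65, GGTGT at -248 and TATAAA from -9 to -4. Myl7 held GATAA at -41, AAGTG at -168 and a CArG box from -61 to -52. Bmp10 held GATAA at -218 and -32 and GGTGT at -241. The table's Myl4 entry, before a start inside the gene, held 1 AAGTG at -111, and the table had no entry for Sln. Of the 32851 mouse promoter stretches of the same length, 22.6% held GATAA, 40.7% AAGTG, 36.2% GGTGT, 3.20% the MEF2 letters, 1.47% a CArG box and 7.59% TATAAA. A match describes the letters only.

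Sarcolipin was abundant on 42 of 45 arrays. The values are log2 expression values, in which 1 unit is a 2-fold difference, and are given per group as lowest, median and highest array. Sln read 11.56, 12.70 and 12.83 in RW-SC, 4.47, 12.29 and 12.97 in RW-MS and 11.78, 12.66 and 13.06 in RW-SS. It read 11.43, 12.41 and 13.16 in DIO-SC, 12.11, 12.61 and 12.98 in DIO-MS and 12.18, 12.63 and 12.92 in DIO-SS. The groups overlapped except for 3 RW-MS arrays. RW-MS 2, 6 and 8 read 4.47, 5.37 and 5.42, whereas RW-MS 1, 3, 4, 5 and 7 read 12.86, 12.97, 12.16, 12.70 and 12.42. The lowest of all other arrays, DIO-SC 7, was 6.01 units above the highest of the 3. The median of the 3 lay 7.33 units, or 161-fold, below that of the other 5 RW-MS arrays, and RW-MS 2 was under the limit of 4.90 that set dim genes aside, so this fold is that of values near the dim end of the scale. A dimmer probe set of Sln showed the same division, with 4.90 to 5.38 on the 3 arrays and 5.52 to 6.78 on the other 42.

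**Figure D1:**
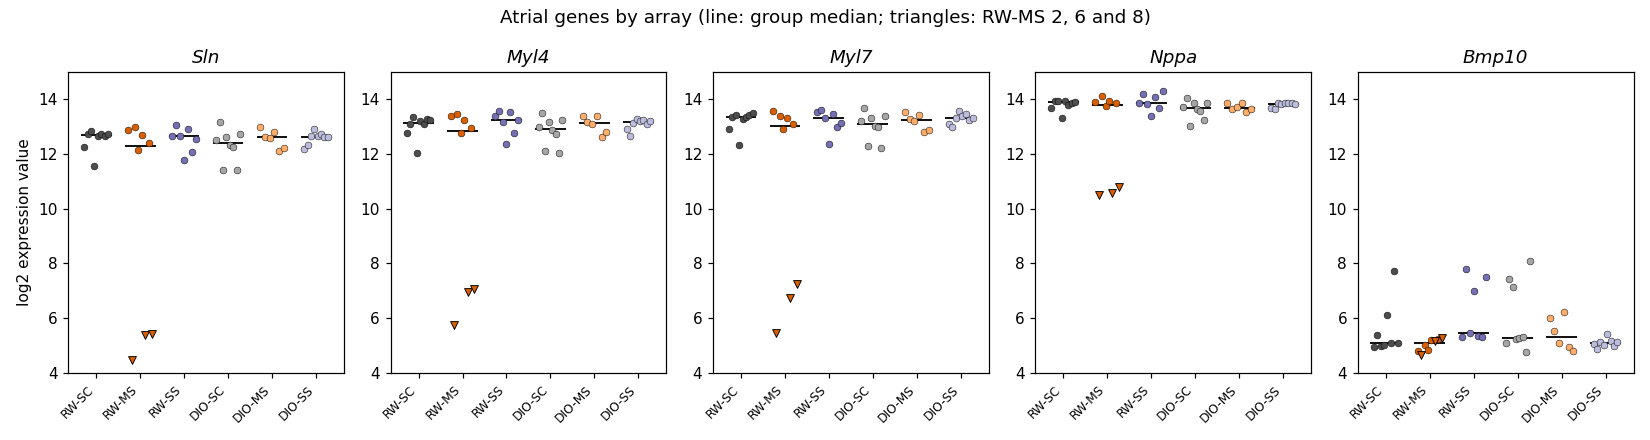
Log2 expression value (vertical axis, the same range for each gene) of the brightest probe set of Sln, Myl4, Myl7, Nppa and Bmp10 in the 6 groups (horizontal axis), with 1 point per array and a line at the group median. The triangles, RW-MS 2, 6 and 8, lie at 4.47 to 5.42 for Sln against 11.43 or more on the other 42 arrays, while for Bmp10 they lie among the other RW-MS arrays and 7 arrays of 3 other groups lie at 6.99 or above.

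The atrial myosin light chains divided the arrays in the same way. Myl4, the essential chain, read 5.75, 6.94 and 7.04 on RW-MS 2, 6 and 8 and 13.37, 13.45, 12.75, 13.22 and 12.95 on RW-MS 1, 3, 4, 5 and 7. Its lowest, median and highest values were 12.04, 13.14 and 13.34 in RW-SC, 12.38, 13.25 and 13.58 in RW-SS, 12.04, 12.92 and 13.50 in DIO-SC, 12.61, 13.11 and 13.40 in DIO-MS and 12.66, 13.16 and 13.28 in DIO-SS. No array lay between 7.04 and 12.04, and the median of the 3 was 6.28 units (77.9-fold) below that of the other RW-MS arrays. A second, dim Myl4 probe set did not separate them: it read 5.76 to 5.86 on the 3 arrays and 5.59 to 6.38 on the others.

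Myl7, the regulatory chain that partners Myl4 on the atrial myosin head, read 5.46, 6.73 and 7.26 on RW-MS 2, 6 and 8. The other RW-MS arrays read 13.56, 13.38, 12.91, 13.32 and 13.11. Myl7 read 12.34, 13.35 and 13.49 in RW-SC, 12.35, 13.30 and 13.62 in RW-SS, 12.20, 13.11 and 13.69 in DIO-SC, 12.80, 13.24 and 13.53 in DIO-MS and 12.99, 13.32 and 13.55 in DIO-SS, as lowest, median and highest. The gap between the 3 arrays and the next was 4.94 units, and the difference of medians within RW-MS was 6.59 units (96.1-fold).

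Nppa differed less on these arrays than Sln, Myl4 and Myl7 did, and stayed bright. It read 10.50, 10.57 and 10.79 on RW-MS 2, 6 and 8 and 13.90, 14.13, 13.74, 13.93 and 13.86 on RW-MS 1, 3, 4, 5 and 7. The lowest, median and highest values were 13.32, 13.89 and 13.95 in RW-SC, 13.38, 13.85 and 14.30 in RW-SS, 13.03, 13.67 and 14.05 in DIO-SC, 13.52, 13.69 and 13.85 in DIO-MS and 13.65, 13.84 and 13.87 in DIO-SS. The 3 arrays were again below all others, by a gap of 2.24 units, and the difference of medians within RW-MS was 3.32 units.

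Bmp10 showed another pattern. It was near the dim end on most arrays, with 6 arrays under 4.90, and RW-MS 2, 6 and 8 read 4.66, 5.16 and 5.27 beside 4.78, 5.02, 4.82, 5.21 and 5.24 on the other RW-MS arrays. It read 4.93, 5.09 and 7.71 in RW-SC, 5.29, 5.46 and 7.78 in RW-SS, 4.78, 5.28 and 8.08 in DIO-SC, 4.79, 5.32 and 6.22 in DIO-MS and 4.85, 5.08 and 5.41 in DIO-SS, as lowest, median and highest. Thus 7 arrays lay at 6.99 or above and the other 38 at 6.22 or below, with none between. The 7 were DIO-SC 8 (8.08), RW-SS 2 (7.78), RW-SC 7 (7.71), RW-SS 7 (7.52), DIO-SC 2 (7.44), DIO-SC 3 (7.14) and RW-SS 4 (6.99), and RW-MS, DIO-MS and DIO-SS had none. High Bmp10 did not require high Sln: on DIO-SC 3 and RW-SS 4 Sln was 11.43 and 11.78, near the low end of the 42 arrays, and on DIO-SC 2 and RW-SS 2 it was 13.16 and 13.06, at the high end. RW-SS 7, the array with the outlying Gapdh difference, was 1 of the 7 arrays.

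The order of the group means changed with the 3 arrays. For Sln the order was DIO-SS (12.58 ± 0.23, SD, n = 8), DIO-MS (12.56 ± 0.34, n = 6), RW-SS (12.53 ± 0.45, n = 7), RW-SC (12.52 ± 0.43, n = 8), DIO-SC (12.31 ± 0.61, n = 8) and RW-MS (9.80 ± 3.92, n = 8). Without RW-MS 2, 6 and 8 the RW-MS mean was the highest (12.62 ± 0.33, n = 5). Myl4, Myl7 and Nppa likewise had RW-MS last over all arrays (10.68 ± 3.43, 10.72 ± 3.54 and 12.68 ± 1.71, n = 8), and without the 3 arrays RW-MS came first for Myl4 (13.15 ± 0.29, n = 5) and Nppa (13.91 ± 0.14, n = 5) and second for Myl7 (13.25 ± 0.25, n = 5). DIO-SC was then the lowest group for each of these 4 genes. For Bmp10 the order was RW-SS (6.24 ± 1.13, n = 7), DIO-SC (6.04 ± 1.29, n = 8), RW-SC (5.54 ± 0.96, n = 8), DIO-MS (5.43 ± 0.59, n = 6), DIO-SS (5.09 ± 0.16, n = 8) and RW-MS (5.02 ± 0.24, n = 8). For all 5 genes, with or without the 3 arrays, each step between neighbours in the order was smaller than the larger SD of the 2 groups.

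Mainstream smoke in RW mice gave 4 of the 5 atrial genes lower than air when all arrays were used. The limma fit of the 6 group means over all 45 arrays, with Benjamini-Hochberg adjustment over the 9295 genes, called 6.86% of all genes at an adjusted p of 0.05. Sln fell by 2.72 ± 0.82 (log2 change ± SE, adjusted p = 0.0338), Myl4 by 2.32 ± 0.72 (0.0408), Myl7 by 2.48 ± 0.74 (0.0325) and Nppa by 1.12 ± 0.36 (0.0496), and Bmp10 changed by -0.52 ± 0.41 (0.509, and -0.53 ± 0.48 with 0.627 without RW-MS 2, 6 and 8). Of the 8 RW-MS arrays, 5 lay under the RW-SC mean for Sln, Myl4 and Myl7 and 4 for Nppa, so the ranges overlapped. Without RW-MS 2, 6 and 8 the changes were 0.10 ± 0.23, 0.15 ± 0.21, 0.059 ± 0.20 and 0.11 ± 0.13, none past the threshold (limma adjusted p = 0.725 to 0.923). Leaving out RW-MS 2, RW-MS 6 or RW-MS 8 alone also ended all 4 calls, as did leaving out the control arrays RW-SC 3, RW-SC 5 or RW-SC 7 alone. The exact two-sided permutation test of the 8 against 8 arrays assumes no normal distribution, but treats the groups as exchangeable. Their spreads differed, with a Sln SD of 3.92 in RW-MS and 0.43 in RW-SC. This permutation test gave unadjusted p = 0.126 for Sln, 0.141 for Myl4, 0.115 for Myl7 and 0.166 for Nppa. A limma fit of these 2 groups only gave adjusted p = 0.256 to 0.291.

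The comparisons that share the RW-MS arrays followed. DIO-MS against RW-MS, the diet effect under mainstream smoke, called 10.6% of all genes and 3 atrial genes higher by limma: Sln by 2.76 ± 0.88 (adjusted p = 0.0363), Myl4 by 2.38 ± 0.77 (0.0396) and Myl7 by 2.47 ± 0.80 (0.0381), with Nppa at 1.03 ± 0.39 (0.0827) and Bmp10 at 0.42 ± 0.44 (0.610, and 0.42 ± 0.51 with 0.633 without RW-MS 2, 6 and 8). RW-SS against RW-MS called 5.82% of all genes and 4 atrial genes higher by limma, Sln by 2.73 ± 0.84 (adjusted p = 0.0448), Myl4 by 2.46 ± 0.74 (0.0400), Myl7 by 2.48 ± 0.76 (0.0444) and Nppa by 1.23 ± 0.37 (0.0431). Because they share the RW-MS arrays with the comparison against air, these are not separate observations. Without the 3 arrays the changes of Sln, Myl4, Myl7 and Nppa lay between -0.20 and -0.0017 in both comparisons, with 0 of the 5 genes past the threshold, and exact permutation p values over all arrays of the called genes were 0.138 to 0.158. The mainstream interaction, the smoke effect in DIO minus that in RW mice, called 0.226% of all genes and 0 atrial genes by limma, although 4 of the 5 had an unadjusted p under 0.05. Its Sln value was 2.97 ± 1.2 (adjusted p = 0.325) and without the 3 arrays 0.15 ± 0.32 (0.902).

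In the remaining comparisons limma called none of Sln, Myl4, Myl7 and Nppa, with or without the 3 arrays. Sidestream smoke in RW mice called 24.6% of all genes, and the atrial changes were 0.010 ± 0.84 for Sln, 0.15 ± 0.74 for Myl4, -0.00072 ± 0.76 for Myl7, 0.10 ± 0.37 for Nppa and 0.70 ± 0.42 for Bmp10 (adjusted p = 0.222 to 0.999). Mainstream smoke in DIO mice called 4.55% of all genes, and the 5 changes ran from -0.61 ± 0.44 (Bmp10) to 0.25 ± 0.88 (Sln). Sidestream smoke in DIO mice called 31.8% of all genes, with Sln at 0.28 ± 0.82, Myl4 at 0.26 ± 0.72, Myl7 at 0.29 ± 0.74 and Nppa at 0.18 ± 0.36. The high-fat diet in air called 20.3% of all genes, with Sln at -0.21 ± 0.82, Myl4 at -0.18 ± 0.72, Myl7 at -0.19 ± 0.74 and Nppa at -0.18 ± 0.36. DIO-SS against DIO-MS called 2.55% of all genes and the 5 changes ran from -0.34 ± 0.44 (Bmp10) to 0.11 ± 0.80 (Myl7). The 3 arrays also widened these errors, since all groups share 1 estimate of the spread. Without them the standard errors of Sln, Myl4, Myl7 and Nppa for sidestream smoke in RW mice were 0.21, 0.19, 0.19 and 0.12, which is 4.03, 3.85, 4.13 and 3.25 times smaller, and no adjusted p of these 4 genes was then under 0.204 in any of these comparisons.

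**Figure D2:**
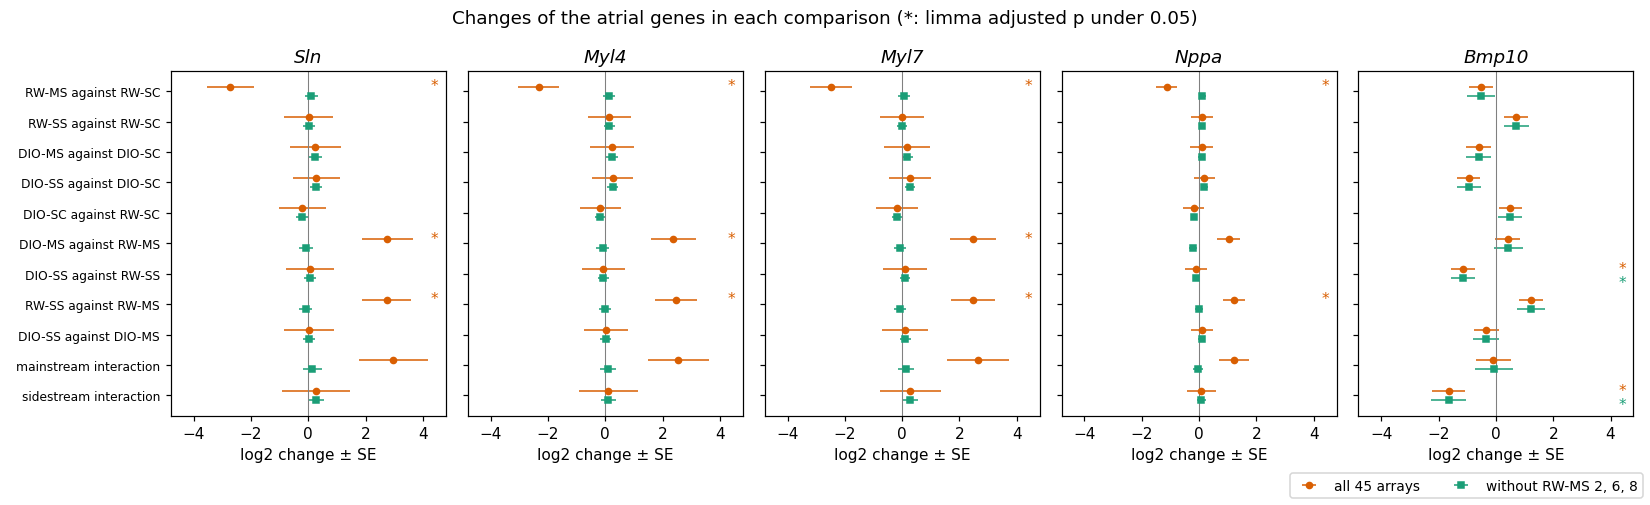
Log2 change ± SE from limma (horizontal axis) of each atrial gene in the 11 comparisons (vertical axis), over all 45 arrays (circles) and without RW-MS 2, 6 and 8 (squares), with a star where the adjusted p is under 0.05. The circles of Sln move from -2.72 to 2.97 only in comparisons that use RW-MS and the squares stay near 0, while the Bmp10 circles and squares nearly coincide.

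Bmp10 was the only one of the 5 genes called in a comparison without RW-MS arrays. DIO-SS against RW-SS called 32.6% of all genes, and Bmp10 fell by 1.15 ± 0.42 (limma adjusted p = 0.0316), with 8 of 8 DIO-SS arrays under the RW-SS mean and the ranges overlapping between 5.29 and 5.41. The exact two-sided permutation test gave an unadjusted p of 0.000622. It treats the groups as exchangeable, while the Bmp10 SD was 1.13 in RW-SS and 0.16 in DIO-SS. Without RW-MS 2, 6 and 8 the limma adjusted p was 0.0369. The sidestream interaction, which called 28.4% of all genes, gave Bmp10 -1.66 ± 0.58 (adjusted p = 0.0311, and 0.0356 without the 3 arrays). Its parts were a Bmp10 change of 0.70 ± 0.42 with sidestream smoke in RW mice and -0.95 ± 0.41 (adjusted p = 0.0670) in DIO mice, neither past the threshold. The 2 comparisons share the RW-SS and DIO-SS arrays, and both calls rest on few arrays. Leaving out RW-SS 2, RW-SS 4 or RW-SS 7 ended the call in DIO-SS against RW-SS (limma adjusted p = 0.09997, 0.0714 and 0.0883) and in the interaction (0.0635, 0.0544 and 0.0574), and leaving out DIO-SC 2, DIO-SC 3 or DIO-SC 8 ended it in the interaction (0.0542, 0.0528 and 0.0590). In RW-SS against RW-MS, which called 5.82% of all genes, the Bmp10 ranges did not overlap (5.29 to 7.78 against 4.66 to 5.27). They nearly met at the dim end, at 5.29 on RW-SS 1 and 5.27 on RW-MS 8, and the median RW-SS array read 5.46. The share of all genes with separate ranges is not given here. The difference was 1.22 ± 0.42 and the limma adjusted p was 0.0721 (1.23 ± 0.49 and 0.118 without RW-MS 2, 6 and 8). The exact permutation p of 0.0001554, unadjusted, is the smallest that 7 against 8 arrays can give. Here too the spreads differed, with a Bmp10 SD of 1.13 in RW-SS and 0.24 in RW-MS, so this p does not measure a shift alone.

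Markers of other cells moved in the same comparison as Bmp10. In DIO-SS against RW-SS, where 19.7% of all genes were called higher and 12.9% lower, limma called 3 of 3 tested red cell genes lower, and the mean of the red cell list was 6.09 to 7.15 in RW-SS and 5.70 to 6.21 in DIO-SS. It called 6 of 9 fibroblast genes and 6 of 9 endothelial genes higher, with list means of 9.62 to 10.20 and 8.59 to 8.82 in RW-SS and 9.94 to 10.51 and 8.77 to 8.85 in DIO-SS. Of 4 endocardium and valve genes 0 were called. The part of these cells in the Bmp10 values was not tested.

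Sln, Myl4, Myl7 and Nppa varied together from heart to heart within the groups, beyond the 3 arrays. Over the other 42 arrays, after subtracting group means, Sln correlated with Myl4 at Pearson r = 0.979 (Spearman rho = 0.943), with Myl7 at 0.974 (0.950) and with Nppa at 0.906 (0.839). Myl4 correlated with Myl7 at 0.978 (0.944) and with Nppa at 0.918 (0.888), and Myl7 with Nppa at 0.871 (0.770). Each of these 6 had a permutation p of 1e-05, the smallest that the permutations run can give (1.67e-05 after Benjamini-Hochberg adjustment over 10 pairs). Leaving out the 2 arrays farthest from the median on the first gene, in most pairs RW-SC 4 and DIO-SC 7, left r between 0.821 and 0.972.

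Bmp10 followed them weakly if at all. Its r was 0.264 with Sln, 0.291 with Myl4, 0.226 with Myl7 and 0.301 with Nppa (rho = 0.222, 0.284, 0.178 and 0.357), with adjusted permutation p of 0.218, 0.202, 0.275 and 0.202 for r. The Nppa value rests on a few arrays, since r was 0.571 without DIO-SC 3 and RW-SS 4, and Bmp10 falls into separate high and low sets of arrays, so its pooled r is a description. Within DIO-MS, where Bmp10 spans 4.79 to 6.22 and no array is in the high set, r with the other 4 was 0.828 to 0.906 over 6 arrays, and in RW-SS it was -0.170 to 0.322 over 7.

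**Figure D3:**
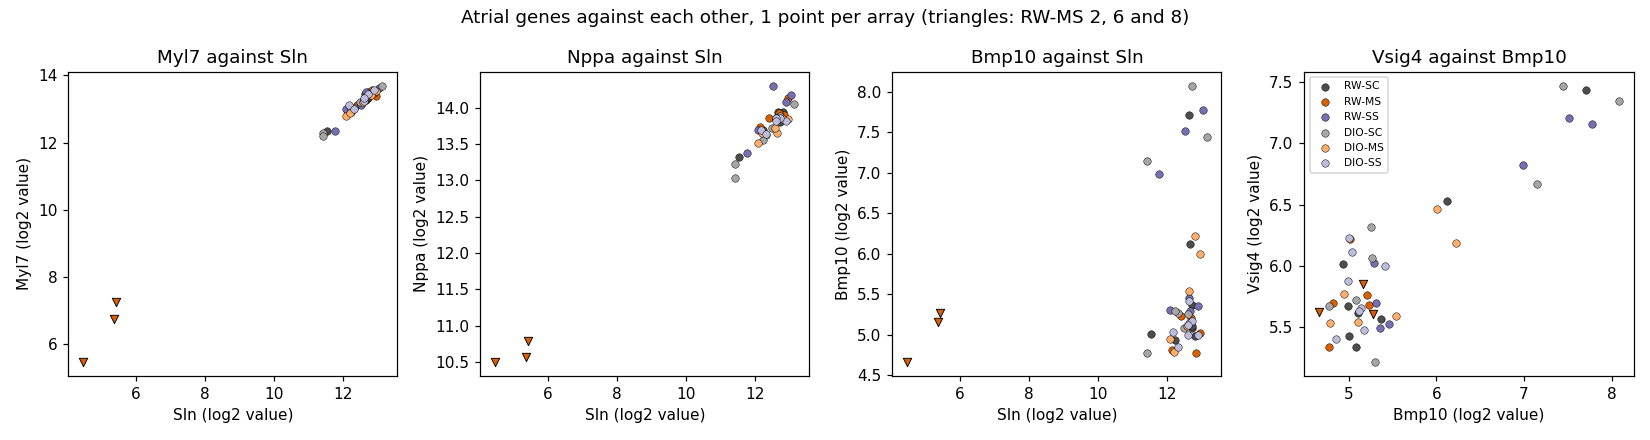
Log2 expression value of 1 gene against another, with 1 point per array coloured by group and RW-MS 2, 6 and 8 as triangles, for Myl7, Nppa and Bmp10 against Sln and for Vsig4 against Bmp10. Myl7 and Nppa rise with Sln over the 42 other arrays (r = 0.974 and 0.906 within groups), Bmp10 shows no such line (r = 0.264), and the 7 arrays with Bmp10 at 6.99 or above have the 7 highest Vsig4 values. Vsig4 was picked by its r with Bmp10 over the same 42 arrays.

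The genes whose pattern was most like that of the 5 were taken by Pearson correlation with the mean of the 5, each scaled to SD 1, after subtracting group means, as a description with no p. Over the 42 arrays they were Stard10, a lipid transfer protein (r = 0.96), Gpx3, a secreted glutathione peroxidase (0.93), Olfm1, a secreted glycoprotein (0.93), Tmem163, a transmembrane protein (0.92), Slc7a7, an amino acid transporter (0.91), Creb3l2 (0.90), Pam, which amidates peptide hormones and is abundant in atrial granules (0.90), Camk1d, a kinase (0.90), Tbc1d1 (0.89) and Sytl2 (0.89). The arrays share 1 platform and the submitters' normalization. Stard10 read 9.10, 10.16 and 10.20 in RW-SC, 8.05, 9.67 and 10.25 in RW-MS and 9.05, 9.83 and 10.63 in DIO-SC, as lowest, median and highest. The 3 arrays lay at 8.05 to 8.15 and the other 42 at 9.05 or above, so the groups overlapped apart from these 3. Over all 45 arrays the most alike genes were Tmem163 (0.95), Dkk3, a secreted protein of the dickkopf family (0.92), Stard10 (0.90), Gpx3 (0.90), Lgals3 (0.87), Sytl2 (0.87), Fgf12 (0.86), Creb3l2 (0.85), Pam (0.84) and Olfm1 (0.83).

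Bmp10 had other companions. Over the 42 arrays the genes most like Bmp10 alone were Vsig4, a complement receptor of resident macrophages (r = 0.88), Cacna2d2, an auxiliary calcium channel subunit (0.83), Adm, the vasodilator adrenomedullin (0.79), Hamp, the iron hormone hepcidin (0.72), Cacna1g, a T-type calcium channel (0.70), Igfbp3 (0.70), Hamp2 (0.69), Ryr3 (0.69), Tbc1d1 (0.68) and Igf2 (0.66). On the 7 arrays with high Bmp10, Vsig4 read 6.67 to 7.47, against 5.21 to 6.53 on the other 38, so that all 7 lay above the rest. Adm was above all of the 38 on 6 of the 7 arrays, Cacna2d2 on 5 and Hamp on 3. Because these genes were picked by their r with Bmp10 over the same arrays, this describes that choice and is no separate observation. Of the ALK1 pathway, Acvrl1 itself read 6.50 to 6.78 on the 7 arrays and 6.34 to 6.93 on the others, and Smad6 and Smad7, the inhibitory SMADs, read 7.78 to 8.14 and 7.65 to 8.00 against 7.30 to 8.13 and 7.37 to 7.90. The receptor gene thus had no array of the 7 above the rest, Smad6 had 1 and Smad7 had 3. Id1, a common target gene, had 1, and Id2 and Id3 had 0.

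On RW-MS 2, 6 and 8 few other genes were as separate. In all, 63 of 9295 genes (0.678%) were lower on these 3 arrays than on every other array and 12 were higher. The largest gaps were those of Sln, Myl4, Myl7 and Nppa, then Tmem163 (2.00 units), Dkk3 (1.02), Stard10 (0.90), Gpx3 (0.71), Fgf12 (0.70), Lgals3 (0.59) and Npr3, the clearance receptor for natriuretic peptides (0.55). The 3 arrays were set apart by their low Sln, Myl4, Myl7 and Nppa, so the place of these 4 genes follows from that choice. Of 9 other atrial genes tested, 4 were below all 42 arrays: Stard10, Dkk3, Pam (10.20 or below against 10.34 or above) and Tbx5, a T-box factor of atrial and conduction tissue (8.48 to 8.61 against 8.66 or above). This list was chosen with earlier results of these data known, and Stard10, Dkk3 and Pam are also among the genes most like the members. The count is therefore no separate observation. The potassium channel genes Kcnj3 and Kcna5 and the calcium channel gene Cacna1d were not, and Kcna5 read 7.26 to 7.82 against 6.90 to 8.23.

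Of 7 ventricular genes tested, none was below or above all other arrays on RW-MS 2, 6 and 8. Of all genes 0.678% were below and 0.129% above, so a count of 0 in 7 does not set the ventricular genes apart. The ventricular light chains Myl2 and Myl3 read 14.52 to 14.54 and 14.42 to 14.48 on the 3 arrays, against 14.42 to 14.56 and 14.25 to 14.47 on the 42. These values lie near 14.77, the highest value on the arrays, and compression at the bright end was not tested. The mean of the ventricular list was 9.32 to 9.43 on the 3 arrays, 9.07 to 9.36 on the other RW-MS arrays and 9.07 to 9.52 on all 42, and 1 of its 8 genes on the array was under the limit of 4.90. The mean of the other atrial list (12 genes on the array, 3 under the limit) was 6.62 to 6.74 on the 3, 7.07 to 7.48 on the other RW-MS arrays and 6.96 to 7.62 on the 42.

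Markers of some other cell types moved with the atrial genes. The endocardium and valve list read 6.77 to 7.0 on the 3 arrays and 7.22 to 7.81 on the 42, with 2 of 4 tested genes, Npr3 and Plvap, below all 42. The fibroblast list read 9.55 to 9.68 against 9.62 to 10.51, with Fn1 below all 42. The fat list read 6.07 to 6.89, against 8.39 to 9.20 on the other RW-MS arrays and 6.17 to 9.44 on the 42, and Adipoq, which defines fat cells, ran from 4.07 to 6.68 on the 3 and from 4.63 to 11.24 on the 42. The epicardium and mesothelium list read 5.00 to 5.34 against 4.98 to 6.56, smooth muscle 8.35 to 8.61 against 8.04 to 9.37 and endothelium 8.63 to 8.68 against 8.48 to 8.89. Sinoatrial node genes read 5.16 to 5.28 against 4.98 to 5.63, with 4 of 6 under the limit of 4.90. The part of these cell types in the atrial values was not tested.

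**Figure D4:**
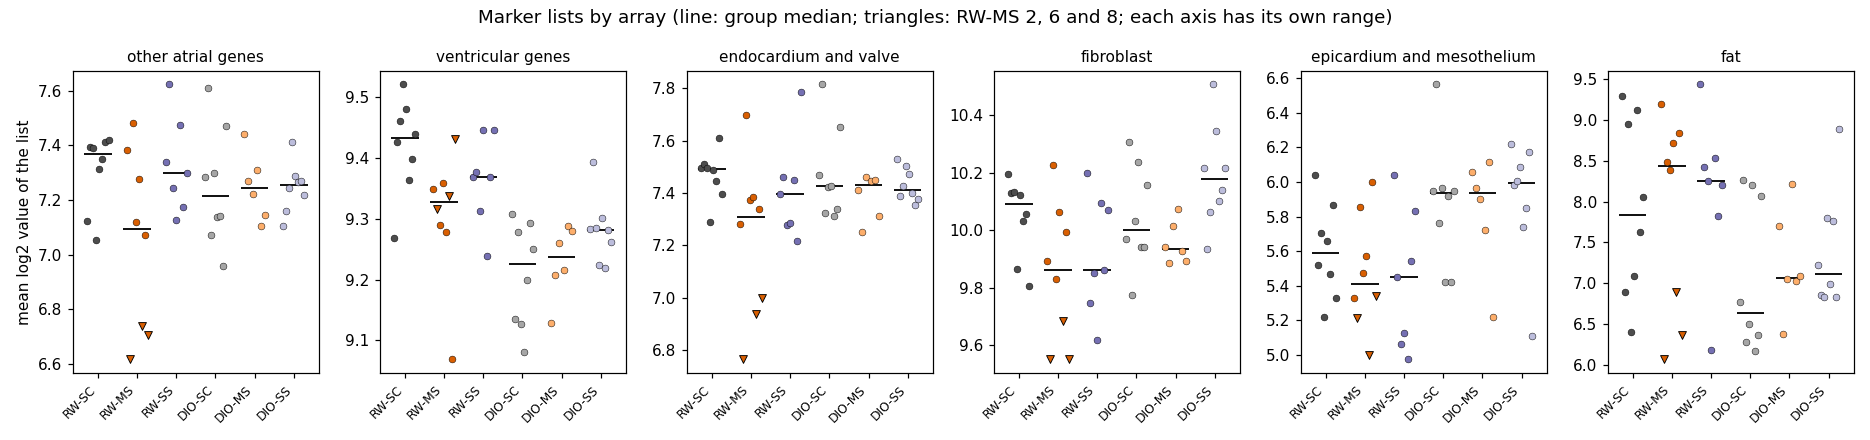
Mean log2 expression value of 6 marker lists (vertical axes, each with its own range) in the 6 groups, with 1 point per array, a line at the group median and RW-MS 2, 6 and 8 as triangles. The triangles lie below every other array for other atrial genes (6.62 to 6.74) and for endocardium and valve (6.77 to 7.0), and within the range of the other arrays for ventricular genes (9.32 to 9.43).

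Tissues next to the heart were at low or variable levels. The lung list read 4.73 to 4.92 on the 3 arrays and 4.51 to 5.92 on the 42, with 4 of 8 genes under the limit. The thymus and T cell list read 4.43 to 4.64 against 4.30 to 7.74, where the highest value was that of RW-MS 7. Skeletal muscle read 5.21 to 5.25 against 5.12 to 5.41, nerve and ganglion 5.44 to 5.59 against 5.37 to 5.96 and red cell genes 5.91 to 6.19 against 5.70 to 7.15.

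Of 11 tested genes of the calcium pump and its partners, with which sarcolipin works, 0 rose and 2 fell with mainstream smoke in RW mice, where 6.86% of all genes were called: the calcium buffers Casq2 by 0.16 ± 0.035 (limma adjusted p = 0.00290) and Casq1 by 0.33 ± 0.081 (0.00822), both still called without the 3 arrays. The pump Atp2a2, also near the bright end, read 14.31 to 14.34 on the 3 arrays and 14.30 to 14.41 on the 42. Its inhibitor Pln, phospholamban, read 13.89 to 13.92 against 13.74 to 13.97. The median change of the list was -0.049 against 0.0015 for all genes. With sidestream smoke in RW mice, which called 24.6% of all genes, 1 of the 11 rose and 2 fell, Casq2 by 0.16 ± 0.036 (adjusted p = 0.00117) and Casq1 by 0.32 ± 0.084 (0.00380).

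Among 13 tested myosin chains and their partners, mainstream smoke in RW mice (6.86% of all genes called) lowered 1, the slow heavy chain Myh7, by 0.62 ± 0.19 (limma adjusted p = 0.0341, and 0.0890 without the 3 arrays). The alpha heavy chain Myh6, also near the bright end, read 14.37 to 14.40 on the 3 arrays and 14.36 to 14.48 on the 42. Myl1, an essential chain of fast skeletal muscle, was the chain gene other than the atrial pair that lay below all 42 arrays, at 9.35 to 9.76 against 9.97 or above. The diet in air, which called 20.3% of all genes, lowered the ventricular chains Myl3 by 0.076 ± 0.021 (adjusted p = 0.00891) and Myl2 by 0.052 ± 0.019 (0.0470), among 4 of 7 ventricular genes that fell, with the factors Irx3 by 0.43 ± 0.071 (2.05e-05) and Irx5 by 0.46 ± 0.091 (0.000301). The median of those 7 was -0.14 against -0.024 for all genes.

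The natriuretic peptide system included genes called with sidestream smoke, where Nppa was not. With mainstream smoke in RW mice, Nppa was called too over all arrays. Nppb, which encodes the B-type peptide made in ventricle and atrium, fell by 0.78 ± 0.16 with mainstream smoke in RW mice (limma adjusted p = 0.00119) and by 0.67 without the 3 arrays (0.0271). It fell by 0.82 ± 0.17 with sidestream smoke in RW mice (0.000277), while Nppa was at 0.10 ± 0.37 there. Npr3 fell by 0.56 ± 0.14 with mainstream smoke (0.0112), and was at -0.24 without the 3 arrays (0.364). These 2 were the fallen genes among 11 tested, with 0 that rose, beside 6.86% of all genes called. With sidestream smoke in RW mice (24.6% of all genes called) 1 of the 11 rose, Corin, the protease that activates the Nppa product, by 0.24 ± 0.065 (0.00629), and 3 fell. In DIO mice with sidestream smoke (31.8% of all genes called) Corin rose by 0.30 ± 0.063 (0.000381).

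Genes of BMP9 and BMP10 signalling were called in both directions. In DIO-SS against RW-SS, where Bmp10 fell and 32.6% of all genes were called (19.7% higher and 12.9% lower), 7 of 20 tested rose and 2 fell, and the median change was 0.13 against 0.019 for all genes. The receptors Bmpr1a and Acvr2a rose by 0.21 ± 0.038 (limma adjusted p = 3.74e-05) and 0.27 ± 0.050 (0.000108), the shared mediator Smad4 by 0.16 ± 0.035 (0.000648) and the ligand Bmp4 by 0.30 ± 0.069 (0.000922). The receptor Acvrl1 was at 0.10 ± 0.064 (0.218) and Id1, a common target gene, at 0.12 ± 0.074 (0.210). In the sidestream interaction (28.4% of all genes called) 5 of the 20 rose and 3 fell, with Bmp4 at 0.43 ± 0.095 (0.00124) and Smad7 at -0.36 ± 0.077 (0.000843). With mainstream smoke in RW mice (6.86% of all genes called) Bmp6 rose by 0.19 ± 0.060 (0.0492, and 0.24 with 0.0163 without RW-MS 2, 6 and 8) and Bmpr1a fell by 0.12 ± 0.037 (0.0390, and by 0.14 with 0.0436 without them). With sidestream smoke in RW mice (24.6% of all genes called) 3 rose and 5 fell. Among them Gdf2, which encodes BMP9, rose by 0.24 ± 0.070 (0.0115) and the receptor Bmpr2 fell by 0.56 ± 0.080 (1.41e-06).

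Cardiac factors that bind the motifs described with the promoters were tested with other factors of the heart. Of 16 tested, mainstream smoke in RW mice, with 6.86% of all genes called, lowered 2, Srf by 0.20 ± 0.055 (limma adjusted p = 0.0182) and Nkx2-5 by 0.16 ± 0.047 (0.0265), both called without the 3 arrays too. With sidestream smoke in RW mice (24.6% of all genes called) Tbx20 fell by 0.58 ± 0.11 (0.000218) and Myocd by 0.25 ± 0.060 (0.00207), and none rose. Of the 9 other atrial genes 1, the potassium channel gene Kcna5, rose by 0.44 ± 0.13 with sidestream smoke in RW mice (0.0126), and in the sidestream interaction (28.4% of all genes called) Kcna5 fell by 0.73 ± 0.19 (0.00388) and Cacna1d by 0.30 ± 0.098 (0.0218). None of the 9 was called with mainstream smoke in RW mice, where their median change was -0.18 over all arrays and -0.033 without the 3.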

How the data were processed

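Total RNA of 45 hearts, 3 µg each, was hybridized to 1 Affymetrix array per mouse, and the labels call the arrays of a group biological replicates. Each probe set has a log2 value as deposited. Its summary method was RMA, per the submitters' processing notes, with software and settings not given in the sources used here. RMA normalizes whole arrays, so changes are relative to other genes. The labels name no batch. Precision is limited by how many arrays a group has.

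Of 22690 probe sets, 20393 had 1 gene. The brightest probe set by mean stood for each of 12394 genes, the dimmest 25% were left out, and 9295 were tested. One fit of 6 group means (limma 3.58.1, R 4.3.3, lmFit and eBayes, two-sided, Benjamini-Hochberg within each of 11 comparisons, threshold 0.05) gave every change and standard error. Promoters and figures were handled in pandas 2.3.3 and matplotlib 3.10.9 under Python 3.11.15. The limma procedure was first tested on simulated data. These had normal noise of equal spread in all groups, so they do not cover genes such as Sln, whose spread in RW-MS was far wider.

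The members and the lists of partner genes and cell type markers were chosen with earlier results of these data known. The text names the 5 members, up to 4 called genes per partner list and comparison, their closest partners (such as Pln, Atp2a2, Myh6, Acvrl1 and Id1), and the 10 genes most like the mean of the members. Other genes were chosen after their values were seen. Alternatives were other filters, probe set rules, variance settings, normalizations, replicate blocks, only the groups compared, and arrays left out. The exact permutation tests and the likeness to Bmp10 alone were chosen after the data were seen.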

Additional observations from a re-analysis of the deposited data

Results flagged for a closer look

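Of 30 sets of values, 1 per gene and group, 4 had an array far from the rest of its group by Dixon's criterion, which chance meets in about 1 in 20 groups. In RW-SC, array 4 had the lowest Sln (11.56, with the next at 12.24), Myl4 (12.04, next 12.76) and Nppa (13.32, next 13.69). RW-SC 7 had a Bmp10 of 7.71, with the next at 6.12. In RW-MS, RW-MS 2, 6 and 8 lie together, which this criterion for a single array cannot mark. The sidestream interaction term of Bmp10 was past the threshold, at -1.66 ± 0.58 on the log2 scale (limma adjusted p = 0.0311). It stayed past the threshold in 8 of 12 alternative settings and in 25 of 31 fits with 1 array left out. Within each diet, sidestream smoke did not pass for Bmp10 (limma adjusted p = 0.222 in RW and 0.0670 in DIO mice).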

How the results depend on the processing

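Leaving out RW-MS 2, 6 and 8 changed the sign of every call of Sln, Myl4, Myl7 and Nppa, in the fit of all groups and in the fit of only the groups compared. Against RW-SC the RW-MS changes became 0.10 (Sln), 0.15 (Myl4), 0.059 (Myl7) and 0.11 (Nppa). DIO-MS against RW-MS became -0.066 (Sln), -0.081 (Myl4) and -0.067 (Myl7), and RW-SS against RW-MS became -0.093 (Sln), -0.0017 (Myl4), -0.059 (Myl7) and -0.0090 (Nppa). Sign changes of values that were never past the threshold are not counted. In these 3 comparisons 0 genes then passed, and 0 with only the groups compared, with or without the 3 arrays. The cause was not tested beyond that.

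For RW-MS against RW-SC, where 4 genes passed, 2 did with no filter, with the mean of all probe sets and with trend and robust variance. For RW-SS against RW-MS, also 4, there were 0 with no filter, 1 with trend and robust variance and 0 with array weights. The Bmp10 call in DIO-SS against RW-SS, 1 gene, became 0 with array weights and when the lowest 50% of genes were left out, which removes Bmp10 itself. The 1 call of the sidestream interaction became 0 under these settings, with a further quantile normalization and with only the groups compared, with or without the 3 arrays.

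The replicate block took the number in the titles or in the animal names. Same-numbered arrays by title had a mean r of -0.0032 between their deviations, with single pairs from -0.56 to 0.47 (34 of 106 pairs over 0.1). No shared deviation was thus seen on average. A mean over pairs cannot tell whether the numbers stand for a pairing in the design. With the replicate block by title, 3 genes passed in RW-MS against RW-SC, 0 in DIO-MS against RW-MS and 0 in RW-SS against RW-MS, and with the replicate block by animal number 2, 0 and 1. The Bmp10 calls stood under both, at -1.22 and -1.09 in DIO-SS against RW-SS.

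Leaving out 1 array at a time gave 0 to 4 genes past the threshold in RW-MS against RW-SC, DIO-MS against RW-MS and RW-SS against RW-MS, and 0 to 1 in DIO-SS against RW-SS, DIO-SS against DIO-SC and the sidestream interaction. In RW-MS against RW-SC, 0 passed without RW-SC 3, RW-SC 5, RW-SC 7, RW-MS 2, RW-MS 6 or RW-MS 8. Leaving out DIO-MS 1, 2, 3 or 4 gave 0 in DIO-MS against RW-MS, leaving out RW-SS 2, 3, 5 or 7 gave 0 in RW-SS against RW-MS, and leaving out RW-MS 2, 6 or 8 gave 0 in both. In DIO-SS against DIO-SC, 1 gene, Bmp10, passed without DIO-SC 1 or DIO-SC 7.

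Some settings moved counts over all genes by more than 1.5 times. RW-MS against RW-SC went from 638 to 380 without the 3 arrays, 402 with only the groups compared and 255 with both. With only the groups compared, DIO-MS against RW-MS went from 985 to 456 and RW-SS against RW-MS from 541 to 4 (503 and 7 without the 3 arrays). Testing every probe set raised RW-SS against RW-SC from 2288 to 3943, DIO-SS against DIO-SC from 2960 to 4579, DIO-SS against RW-SS from 3030 to 4955, RW-SS against RW-MS to 1156, DIO-SS against DIO-MS from 237 to 436 and the sidestream interaction from 2641 to 4177. Array weights gave 714 in DIO-MS against DIO-SC (423), 1565 in DIO-MS against RW-MS, 1964 in DIO-SS against DIO-MS and 48 in the mainstream interaction (21). Median centring gave 267 in DIO-MS against DIO-SC. A further quantile normalization gave 100 in DIO-SS against DIO-MS and 1587 in the sidestream interaction, and the replicate block by animal number 90 in DIO-SS against DIO-MS. The further quantile normalization also moved the share of higher genes by over 10 points: 363 of 699 (266 of 638 without it) in RW-MS against RW-SC, 1378 of 2266 (1083 of 2288) in RW-SS against RW-SC, 1303 of 2215 (2140 of 2960) in DIO-SS against DIO-SC, 773 of 1675 (643 of 1883) in DIO-SC against RW-SC, 1142 of 2584 (1832 of 3030) in DIO-SS against RW-SS, 297 of 533 (204 of 541) in RW-SS against RW-MS, 38 of 100 (148 of 237) in DIO-SS against DIO-MS and 623 of 1587 (1700 of 2641) in the sidestream interaction. Array weights, other filters, every probe set, the replicate block and only the groups compared moved it too in some comparisons. With the lowest 50% left out it went the other way, to 1497 of 1763 in the sidestream interaction, 1650 of 2175 in DIO-SS against RW-SS and 204 of 258 in DIO-SS against DIO-MS, and array weights gave 581 of 1565 (478 of 985) in DIO-MS against RW-MS. The called members kept their direction under the further quantile normalization.

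Leaving out 1 array moved these counts by over 1.5 times in 4 comparisons. DIO-SS against DIO-MS (237) gave 43, 27, 83, 37, 624 and 827 without DIO-MS 1 to DIO-MS 6 in that order, and 80, 76, 132 and 125 without DIO-SS 4, 5, 7 and 8. DIO-MS against DIO-SC (423) gave 249 without DIO-SC 5, 221 without DIO-MS 5 and 248 without DIO-MS 6. RW-SS against RW-MS (541) gave 292 without RW-MS 2. The mainstream interaction (21) gave 32 without DIO-SC 8, 33 without RW-MS 1 and 35 without DIO-MS 1.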

Other observations

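Values of the atrial genes were also spread within the groups without the 3 arrays. RW-SC 4, RW-SS 4, DIO-SC 3 and DIO-SC 7 were low for several of the genes: Sln read 11.56, 11.78, 11.43 and 11.43 there, and RW-SC 4, RW-SS 4 and DIO-SC 7 had the lowest Sln, Myl4 and Myl7 of their groups. The narrowest group was DIO-SS, with an SD of 0.23 for Sln, 0.21 for Myl4, 0.18 for Myl7, 0.085 for Nppa and 0.16 for Bmp10 over 8 arrays, beside 0.61, 0.52, 0.52, 0.34 and 1.29 in DIO-SC.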
